A study of Apis mellifera with 9 samples.

Results

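The regions described here held a peak of histone H3 lysine 27 trimethylation (H3K27me3) in every list from an active honeybee (Apis mellifera) ovary and in neither list from an inactive one. Overlapping peaks (by 1 base or more) of the 6 lists were merged, which gave 53589 regions, and a region counted as called in a list if at least 1 base of that list's peaks lay in it. The regions called in all 4 active-ovary lists and in neither queen-right worker list numbered 1384 of 53589 (2.58%), and they are named active-ovary regions below. They were chosen by the presence and absence of peaks in these same lists. Their presence in active ovaries is therefore no finding, and every value of them is given as a description, with no test.

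ChIP-seq, the sequencing of DNA recovered with an antibody against the mark, was done for 3 groups of ovaries, from queens that laid eggs, from queen-less workers and from queen-right workers. Each group had 2 samples, which the labels call biological duplicates. The queens were about 12 months old and headed colonies, and the labels give no ovary score for them. The queen-less workers had an ovary score of 3 and were dissected 2 to 4 weeks after their colony was set up without a queen, while the queen-right workers had a score of 0 and lived with a laying queen. All samples were whole female ovaries, and each sample pooled 3 immunoprecipitations. How many bees went into a sample, and how old the workers were, is not given in the sources used here. Among workers, loss of the queen and activation of the ovary go together and cannot be told apart. In whole ovaries, a change in the share of a cell type and a change of the mark within a cell cannot be told apart either.

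H3K27me3 is placed by the Polycomb repressive complex PRC2, known best from Drosophila and mammals. It is found over silenced genes, often as broad domains that hold many neighbouring nucleosomes. In a honeybee colony the pheromone of the queen keeps worker ovaries inactive, as thin ovarioles without maturing oocytes. When the queen is lost, some workers activate their ovaries, which then fill with oocytes and their nurse cells as in a queen, and lay unfertilised eggs.

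The lists held 48654 to 50922 peaks each, and their peaks covered 22.2% to 35.4% of a span of 220.2 Mb on 1834 scaffolds. Queen-less worker 2 stood apart with the highest cover (78.0 Mb) and the highest median score (73), and queen-right worker 2 had the lowest cover (48.8 Mb). Queen-right worker 1, at 64.8 Mb, covered more than both queens and queen-less worker 1. Of all regions, 72.4% were called in queen 1, 64.6% in queen 2, 67.9% in queen-less worker 1 and 85% in queen-less worker 2, against 73.1% in queen-right worker 1 and 65.2% in queen-right worker 2. No read counts are in the lists and sequencing depth is unknown, and more depth gives more peaks at the same threshold. The genome build is not given in the sources used here, and positions below are on the scaffolds of the lists, counted from 1. No gene or sequence is given at them, because the only gene table used, of assembly Amel_HAv3.1, shares 0 scaffold names with the lists.

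The count of active-ovary regions was set beside the counts for the other 14 choices of 4 lists against 2. With 1384 regions, the choice of both queen-right lists as the lacking pair gave the highest count of the 15. The next was 717 regions (1.34%), which lacked queen 2 and queen-less worker 1. Regions lacking queen 2 and queen-right worker 2 numbered 654, those lacking both queens 377 and those lacking both queen-less workers 26. The lowest count was 4 (0.00746%), for queen 1 and queen-less worker 2, and the median of the 14 was 126. The opposite pattern, a peak in both queen-right lists and in no active list, was seen in 461 regions (0.86%). The next 3 choices, with 717, 654 and 507 regions, were the pairs among the 3 lists with the lowest cover (queen 2, queen-less worker 1 and queen-right worker 2). Of the queen-right lists, worker 1 had the second highest cover of the 6 and worker 2 the lowest. The part of cover in the order of the choices was not tested.

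**Figure D1:**
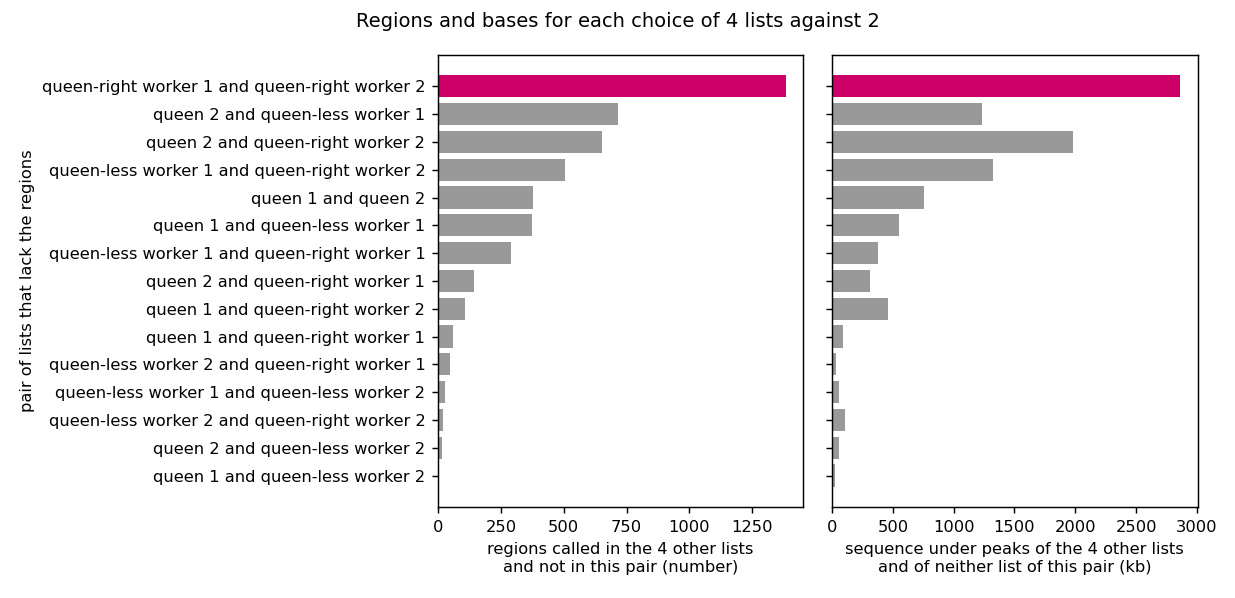
Left, the number of regions called in 4 lists and not in the pair named at each bar, for all 15 pairs. Right, the sequence in kb under peaks of all 4 lists and of neither list of the pair. The bars in magenta are the queen-right pair (1384 regions, 2863 kb), and the highest grey bars reach 717 regions and 1981 kb.

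Counted by base, 2863 kb lay under peaks of all 4 active lists and of neither queen-right list, against 21.6 to 1981 kb for the other 14 choices (median 343.6 kb). Most of this sequence lay outside the active-ovary regions. Regions called in all 6 lists held 2018 kb of it (70.5%), where the active lists had longer or more peaks than the queen-right lists within a shared region. The active-ovary regions held 454 kb (15.9%), and regions with a peak of 1 queen-right list held 391 kb (13.7%).

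The order of the choices depended on how weak peaks were treated. When peaks scoring under 20 were left out of all lists, there were 1343 active-ovary regions, and another choice gave 1348. When that minimum was set for the active lists alone, which makes a region harder to find in active ovaries and no easier to miss in queen-right ovaries, 627 regions were left and the choice ranked 4 of 15. When only the top-scoring peaks of a list were kept, up to the cover of queen-right worker 2 (48.8 Mb), 134 regions were left and the choice ranked 9. In queen-less worker 2 this left 18270 peaks, none with a score below 91, while queen-right worker 2 lost none of its 50922. With lists of equal length (48654 peaks) the count was 1390, and the next choice gave 583. Without queen-right worker 1 the count was 2856 and without queen-right worker 2 it was 2519, since only 1 list then had to lack the region. Without queen 1, and without queen-right worker 2, another choice gave more regions than this one.

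Most active-ovary regions were short. Their median width was 722 bases, with the central 90% between 261 and 2276 bases and a range of 190 to 13297 bases. Only 114 (8.24%) were wider than 2 kb, and all together they spanned 1288 kb, or 0.585% of the span. Regions called in all 6 lists had a median width of 1681 bases, all regions one of 755 bases, and regions called in the queen-right lists alone one of 445 bases. The medians of the other 14 choices ran from 379.5 to 1118.5 bases, so the width of 722 bases was within their range.

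Each list covered a part of these regions. Of their bases, queen 1 covered 67.7%, queen 2 55.3%, queen-less worker 1 68.9% and queen-less worker 2 73.7%. The median share of a region under peaks was 77.7%, 65.6%, 73.8% and 89.3% in the same order. All 4 lists each covered more than 50% of the region in 653 regions (47.2%), and in 1356 regions at least 1 base lay under peaks of all 4. Queen-less worker 2 covered most of the region in 653 regions, queen-less worker 1 in 301, queen 1 in 281 and queen 2 in 149. The list with the highest cover was thus most often the one that covered the largest part of a region. Which list set the merged borders was not counted.

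A score was read only as a percentile, the share of peaks of the same list with that score or a lower one, because scores rise with depth. The median percentile of the active-ovary regions was 36.4 in queen 1, 30.4 in queen 2, 39.6 in queen-less worker 1 and 29.0 in queen-less worker 2. Regions called in all 6 lists had medians of 69.7, 66.9, 66.8 and 71.8 in the same lists, and all regions called in a list had medians of 53.7, 54.2, 53.6 and 51.0. In each of the 4 lists the active-ovary regions thus had lower scores, in the median, than the other regions called. Scores under 20 were seen in 15.4%, 17.9%, 42.6% and 6.72% of them, against 12.8%, 8.65%, 28.9% and 3.04% of all regions called in the list.

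**Figure D2:**
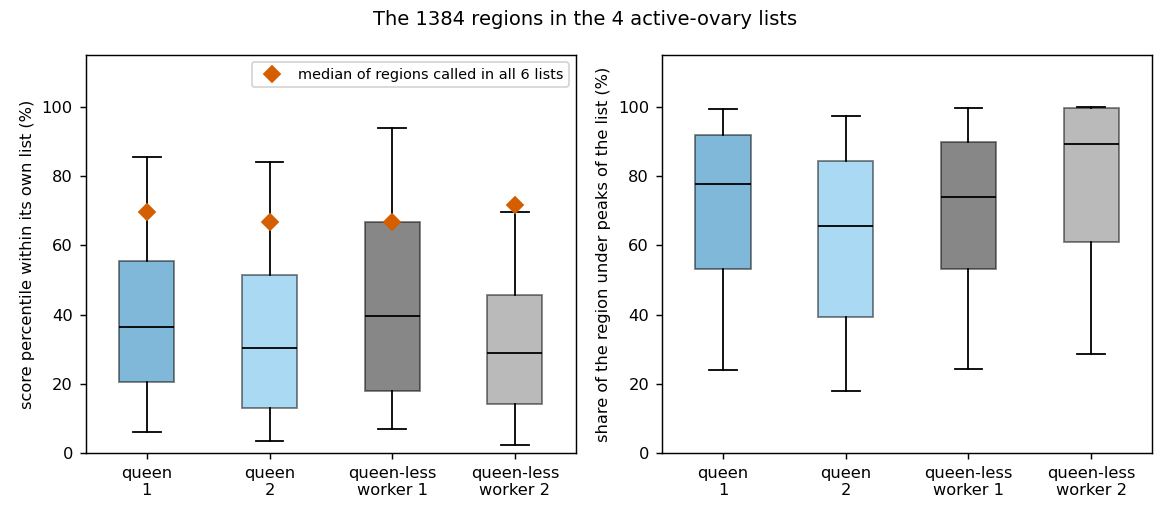
The 1384 active-ovary regions in the 4 active-ovary lists, as the percentile of the score within its own list (left) and as the share of the region under peaks of that list (right). Boxes span the 25th to 75th percentile with the median as a line, whiskers the 5th to 95th, and orange diamonds are the median of regions called in all 6 lists, 66.8 to 71.8 against 29.0 to 39.6 for the active-ovary regions.

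Few of them were strong in every list. The lowest of the 4 percentiles had a median of 14.0, against 48.0 for regions called in all 6 lists. It was 50 or more in 74 active-ovary regions (5.35%), against 45.6% of the regions called in all 6. A score of at least 20 in all 4 lists was found in 627 (45.3%).

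Queens and queen-less workers share an active ovary and differ in caste and colony, and the age of the workers is not given. The rule did not use how much of a region each covered, but the peaks of these same lists set the borders of the regions. Queens covered 61.5 ± 8.76% of the bases and queen-less workers 71.3 ± 3.43% (SD, n = 2 each), a difference of -9.81 percentage points against a pooled replicate SD of 6.65. Both queens lay below both queen-less workers. Without queen 2 the difference was -4.30 and without queen 1 it was -16.2. Over all sequence, queen-less worker 2 covered most and queen 2 least of the 4, as in these regions, but queen 1 covered more than queen-less worker 1 (63.1 against 59.2 Mb) and less in these regions. The part of the overall cover in this difference was not tested. The median percentile was 33.4 ± 4.18 in queens and 34.3 ± 7.48 in queen-less workers (SD, n = 2 each), a difference of -0.90 against a pooled SD of 6.06, and the groups overlapped.

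Similar numbers of regions lay just outside the rule for each queen-right list. All 4 active lists and queen-right worker 1 alone of the queen-right lists shared 1403 regions with a median width of 819 bases, and all 4 with queen-right worker 2 alone shared 1126 with a median of 880 bases. The peaks of the added queen-right list had median percentiles of 31.9 and 30.2 there, as low as those of the active-ovary regions in the active lists. In 98 regions called in all 4 active lists, queen-right peaks lay under less than 10% of the region, and in 10 under less than 5%. Regions that lacked both queen-right lists and 1 active list numbered 635 without queen 2, 544 without queen-less worker 1, 170 without queen-less worker 2 and 135 without queen 1.

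Single regions show how near the limit some calls were. The region on NW_003378187.1 from 4431 to 9914 was inside the rule although queen 2 covered 3.21% of it, while queen 1 covered all of it. The region on NW_003378088.1 from 4559800 to 4562606 was inside with 5.66% covered by queen 2, and that on NW_003377972.1 from 444514 to 447355 with 5.84% covered by queen-less worker 2. On the other side, the region on NW_003378124.1 from 169109 to 174561 had 73.2% or more under peaks of each active list and was left out for a peak of queen-right worker 2 over 3.04% of it. The region on NW_003378123.1 from 927733 to 935422 was left out for a peak over 3.13%, again of queen-right worker 2.

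The 8 active-ovary regions with the highest lowest percentile were named by rule. The highest lay on NW_003378124.1 from 107408 to 107797, was 390 bases wide and scored 73 in queen 1, 105 in queen 2, 47 in queen-less worker 1 and 163 in queen-less worker 2, all at percentiles of 94.2 or more. A queen-right peak lay 832 bases away. The region on NW_003378283.1 from 25562 to 26620 (1059 bases) scored 249, 168, 102 and 144 in the same order, which placed it at or near the top of the lists of queen 1, queen 2 and queen-less worker 1 and at a percentile of 91.7 in queen-less worker 2. These peaks were among the strongest of their lists, and each active list covered 91.0% or more of this region.

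The next 4 were short as well. They lay on NW_003378331.1 from 36130 to 36687 (558 bases), on NW_003377989.1 from 1195124 to 1195566 (443 bases), on NW_003377972.1 from 319148 to 319485 (338 bases) and on NW_003377988.1 from 1403788 to 1404053 (266 bases). Their lowest percentiles ran from 84.0 down to 79.2. The scaffold of the first of these had no queen-right peak at all, and queen-right peaks lay 1591, 608 and 998 bases from the others.

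The remaining 2 were wider. On NW_003377877.1 from 767810 to 770119 (2310 bases), the scores of the 4 lists in that order were 111, 90, 30 and 139, and the covered part ranged from 20.5% in queen 1 to 97.8% in queen-less worker 1. On NW_003378364.1 from 10289 to 12411 (2123 bases), they were 162, 111, 91 and 106. Each list covered 75.1% or more of the latter, on a scaffold of 31.8 kb that held no queen-right peak.

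None of the 5 widest regions was among these 8. The widest active-ovary region lay on NW_003378187.1 from 18673 to 31969 (13297 bases), where queen-less worker 1 covered 12893 bases as 1 peak and queen 1 covered 6311 bases as 5 peaks. Queen 2 covered 1087 bases and queen-less worker 2 3457 bases, and the 4 scores were 28, 16, 19 and 15. The next, on NW_003377938.1 from 1749653 to 1756886 (7234 bases), had 3378 to 4621 bases covered and scores of 68, 113, 20 and 81. Its covered bases were thus alike in the 4 lists, unlike those of the widest.

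The third in width filled much of a small scaffold. On NW_003378437.1 from 558 to 6630 (6073 bases), the lists covered 4745 to 6060 bases, with scores of 44 to 56, and no queen-right peak lay on its 18.2 kb. On NW_003378026.1 from 601358 to 606867 (5510 bases) they covered 2885 to 5510 bases, with scores of 15 in queen 2 and queen-less worker 2 and of 53 in queen-less worker 1. The fifth was the region on NW_003378187.1 from 4431 to 9914 (5484 bases), named above for its cover of 3.21% in queen 2.

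The distance from an active-ovary region to the nearest queen-right peak had a median of 1846 bases, with the central 90% between 645 and 14530 bases, among those with such a peak on their scaffold. A queen-right peak lay within 1 kb of 324 regions (23.4%, 95% interval 21.2 to 25.7%, which covers counting error only), within 5 kb of 79.3% and within 10 kb of 89.9%. Regions called in the queen-right lists alone lay within 1 kb of an active peak in 36.7%. For the other 14 choices, the share within 1 kb of a peak of the lacking pair was 17.0% to 61.5%, with a median of 41.0%. The share of 23.4% was thus below the median of the other choices and inside their range.

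A few lay far from any queen-right peak. The 3 farthest were on 1 scaffold, NW_003378187.1, at 135711, 113656 and 92330 bases. The last of these, from 51020 to 53295, was covered over 97.3% and 93.6% by queen-less workers 1 and 2 and over 18.1% and 11.6% by queens 1 and 2. The region on NW_003378128.1 from 706642 to 707764 lay 81538 bases away, and that on NW_003378002.1 from 375067 to 375458 lay 57728 bases away. Scores in these 5 regions were 51 or lower, and 15 or 16 in queen 2 in 4 of them. A further 19 regions lay on 15 scaffolds that held no queen-right peak.

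The active-ovary regions lay on 249 of the 1834 scaffolds, and 1306 (94.4%) were on scaffolds of 200 kb or more, of which 189 of 228 held at least 1. The most on 1 scaffold was 45, on NW_003378088.1, where they were 4.02% of its 1120 regions over 4714.88 kb. Among scaffolds with 10 or more, the highest share was 11 of 62 regions (17.7%) on NW_003377878.1. Next were NW_003378115.1 with 37 of 224 (16.5%) and NW_003377959.1 with 36 of 218 (16.5%). On NW_003378115.1 as a whole, peaks covered 25.4%, 21.9%, 25.1% and 28.4% in the 4 active lists, against 9.55% and 11.7% in queen-right workers 1 and 2. These shares can be read against 2.58% of all regions.

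Of the 1384, 297 (21.5%) had another active-ovary region as their neighbour in the order of merged regions, and the others stood alone. There were 112 runs of 2, 17 of 3, 3 of 4 and 2 of 5. Of 2729 neighbours, 326 (11.9%) were active-ovary regions, against 2.58% of all regions, and 29.2% were called in all 6 lists, against 46.4% of all regions. The run of 5 with the most bases lay on NW_003377877.1 from 772715 to 784883, where 9532 of 12169 bases were in active-ovary regions. In its widest region, from 776689 to 780372 (3684 bases), the scores were 87 (queen 1), 68 (queen 2), 42 (queen-less worker 1) and 72 (queen-less worker 2). The strong region from 767810 to 770119 lay less than 3 kb before this run.

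Sequence was then divided into windows of 100 kb, a view that was chosen after the data were seen, to ask whether the regions mark broader stretches. Of 3788 windows, 776 held an active-ovary region and 481 of these held 1. Windows with 6 or more numbered 23 and held 184 of the regions (13.3%). In 22 of the 23, each active list covered more bases than both queen-right lists. This follows in part from the choice, since the cover of a window includes the bases of its active-ovary regions. Median cover in these windows was 21.8, 16.8, 21.3 and 26.7 kb in the active lists and 5.62 and 8.75 kb in queen-right workers 1 and 2. Over all windows, with short ones at scaffold ends and on small scaffolds included, the medians were lower. They were 4.89, 3.54, 5.16 and 6.40 kb in the active lists and 5.10 and 3.99 kb in the queen-right lists. Between the queen-right workers, sample 1 thus covered more than sample 2 over all windows and less in the 23.

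**Figure D3:**
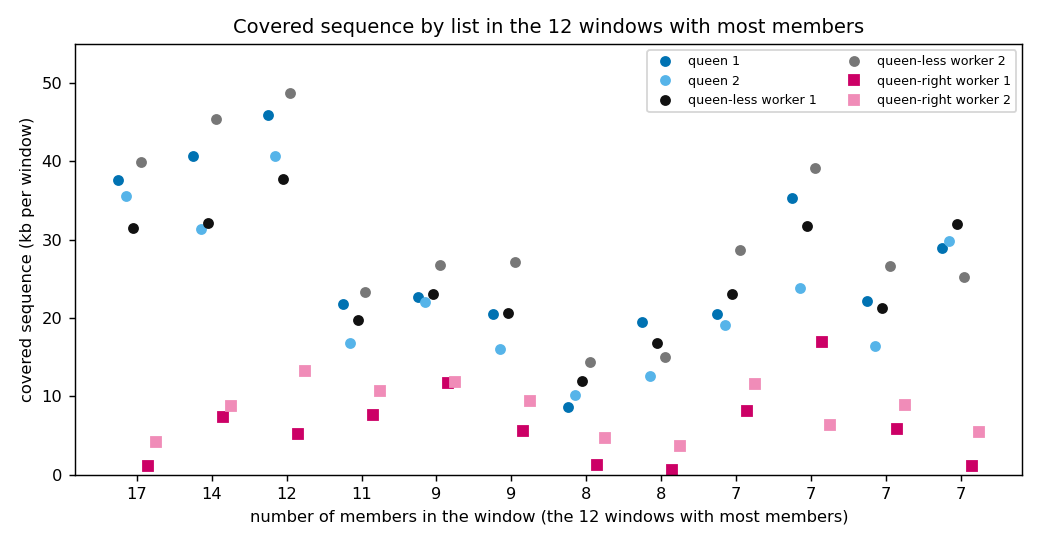
Covered sequence per list (kb) in the 12 windows of 100 kb with most active-ovary regions, from 17 on the left to 7 on the right. Circles are queens and queen-less workers, squares queen-right workers, and each circle lies above both squares of its window. The windows were chosen for active-ovary regions with these same lists. The window at the end of NW_003378115.1 is shorter than 100 kb.

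The window with most, 17, lay on NW_003377959.1 from 200001 to 300000. Peaks covered 37.6 and 35.6 kb of it in queens 1 and 2, 31.6 and 39.9 kb in queen-less workers 1 and 2, and 1.15 and 4.23 kb in queen-right workers 1 and 2. The window before it, from 100001 to 200000, held 12 and was covered over 45.9, 40.8, 37.7 and 48.8 kb in the active lists and 5.15 and 13.2 kb in the queen-right lists. The second in number, with 14, was on NW_003378077.1 from 700001 to 800000, with 40.7, 31.4, 32.1 and 45.4 kb against 7.44 and 8.75 kb. In these 3 windows the lowest active list exceeded the highest queen-right list by 22.6 to 27.3 kb.

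Both windows on NW_003377959.1 form a stretch of 200 kb with 29 active-ovary regions. Within it, peaks covered 41.8% and 38.2% in queens 1 and 2, 34.6% and 44.4% in queen-less workers 1 and 2, and 3.15% and 8.71% in queen-right workers 1 and 2. On the rest of the scaffold the shares were 17.2%, 15.3%, 17.5% and 22.9% against 14.2% and 14.9%. The gap between active and queen-right lists was wider in the stretch than over the rest of the scaffold. As the stretch was chosen for its active-ovary regions, this follows in part from the choice. Bins beyond the borders of the stretch varied. The bin centred 110 kb after its centre held little in any list (3.9%, 2.1%, 6.7% and 0.745% against 0% and 0%). In the bin centred 130 kb before the centre of the stretch, queen-less worker 1 (9.525%) lay below queen-right worker 2 (10.79%). Other bins outside the stretch had a gap. In the bin centred 110 kb before the centre, peaks covered 26.6%, 27.9%, 16.6% and 37.6% in the active lists against 3.23% and 14.3%. In the bin centred 130 kb after it, they covered 36.6%, 39.7%, 42.3% and 45.5% against 9.26% and 12.7%. Without peaks that scored under 20, the stretch was covered over 28.6% to 42.5% in the active lists and 2.21% and 4.54% in the queen-right lists. With each list reduced to equal cover, the shares were 28.7%, 35.5%, 28.6% and 9.40% against 1.93% and 8.71%, so queen-less worker 2 then came close to queen-right worker 2.

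**Figure D4:**
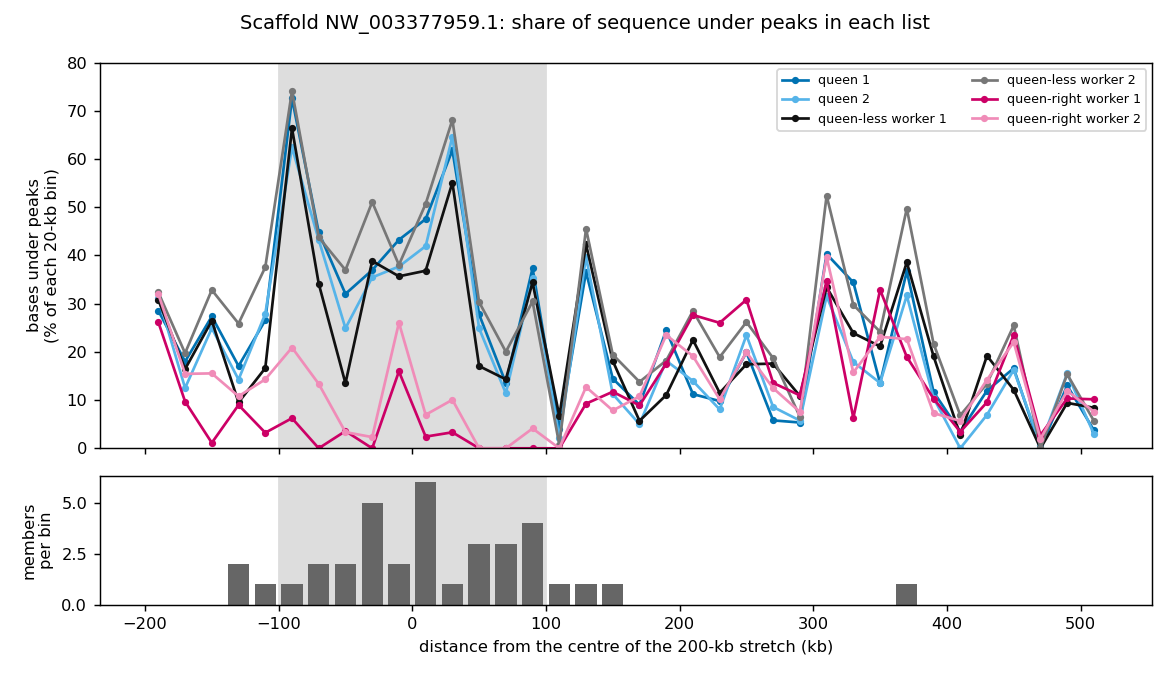
Share of sequence under peaks (%) in bins of 20 kb along scaffold NW_003377959.1 for the 6 lists, by distance in kb from the centre of the 200-kb stretch (shaded), with the number of active-ovary regions (members) per bin underneath. In the stretch the queen-right lists (magenta and pink) covered 3.15% and 8.71%, and the other 4 lists 34.6% to 44.4%.

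Windows in which each active list exceeded both queen-right lists by at least 10 kb numbered 64 (1.69%), on 37 scaffolds, and the reverse was seen in 0. For the other 14 choices the number was 0 to 20. With a difference of 1 kb the numbers were 303 and 14, and the largest differences were 30.0 kb towards the active lists and 3.67 kb towards the queen-right lists. The 64 windows held 149 of the active-ovary regions (10.8%), and 20 of them held none.

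The largest differences included windows without such regions, which were covered in all 6 lists. The largest difference of all was on NW_003378039.1 from 1400001 to 1500000, with 0 active-ovary regions, where peaks covered 71.4, 65.6, 70.2 and 79.0 kb in the active lists against 31.5 and 35.6 kb. On NW_003378123.1 from 1500001 to 1600000, also with 0, the values were 79.4, 79.2, 79.4 and 86.5 kb against 37.4 and 54.1 kb. Over the 64 windows, median cover was 48.8, 44.7, 49.4 and 59.0 kb in the active lists and about 27 kb in each of the queen-right lists.

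The number of windows also changed with the treatment of weak peaks. The queen-right pair gave the highest number of the 15 choices with a score of at least 20 in all lists (74 windows, next 3), with that score in the active lists alone (40, next 3), with equal list lengths (67, next 17) and with equal cover (41, next 17). Without queen-less worker 1 it gave 67 windows and another choice 76. Without queen 2 the number was 111 and without queen-right worker 1 it was 220. Without queen-less worker 2, the list with the highest cover, it was 64, as with all lists. The count depends on the lowest active list of each window, so leaving out a list with high cover could change it little.

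As the same lists chose and described these windows, lists left out of a new choice were read next. The lists were split by number only, after all 6 had been seen. All 6 also defined the active-ovary regions, so the values are a description and no independent support. Windows were chosen with queen 1, queen-less worker 1 and queen-right worker 1, where the lower of the first pair exceeded the last by at least 10 kb. They numbered 133, and in all 133 the same direction was found in the lists numbered 2, with a median difference of 12.1 kb. Of the lists numbered 2, queen-right worker 2 had the lowest cover of all 6 (48.8 Mb) and queen-less worker 2 the highest (78.0 Mb). The part of cover in this direction was not tested. Among all windows, 42.2% had that direction in the lists numbered 2. The median cover of all windows was 3.54 to 6.40 kb by list, below the 10 kb that the choice needed. Shares of all windows are thus not matched to the chosen ones. Chosen with the lists numbered 2, windows numbered 235, of which 165 (70.2%) had the same direction in the lists numbered 1, with a median of 4.95 kb, against 22.8% of all windows. A difference of at least 10 kb in both sets of lists was found in 92 windows.

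The opposite choice did not recur in this way. Windows in which queen-right worker 1 exceeded queen 1 and queen-less worker 1 by at least 10 kb numbered 216, and 9 (4.17%) had that direction in the lists numbered 2, where the median difference was -11.2 kb. With the lists numbered 2 there were 0 such windows. The cover of the lists moves with this: queen-right worker 1 covered more than queen 1 and queen-less worker 1, and queen-right worker 2 less than queen 2 and queen-less worker 2. Its part in these counts was not tested.

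**Figure D5:**
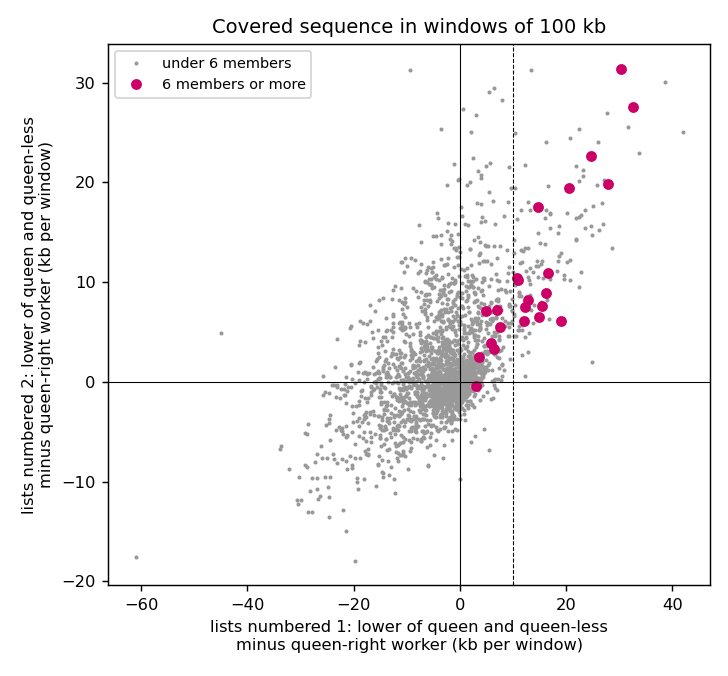
Each point is a window of 100 kb. The horizontal axis gives, in kb of covered sequence, the lower of queen 1 and queen-less worker 1 minus queen-right worker 1, and the vertical axis the same for the lists numbered 2. The dashed line marks 10 kb. All 133 windows beyond it lie above 0 on the vertical axis. Magenta points are the 23 windows with 6 or more active-ovary regions, which were chosen with all 6 lists.

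The same was done for regions, with 1 list of each group used for the choice. Over the 8 possible choices, 3007 to 6388 regions were called in the queen and the queen-less worker and not in the queen-right worker. The unused queen then had them in 60.1% to 90.7%, the unused queen-less worker in 63.8% to 91.7% and the unused queen-right worker in 34.2% to 48.8%. Where the queen-right list used for the choice also had the region, the unused lists had it in 91.0% to 98.9%, 87.7% to 99.8% and 90.2% to 95.3%. Those regions were not matched to the chosen ones in score or width. Of all regions, queens 1 and 2 had 72.4% and 64.6%, queen-less workers 1 and 2 67.9% and 85%, and queen-right workers 1 and 2 73.1% and 65.2%. When unused, queen 2 and queen-less worker 1 came near those shares and queen-less worker 2 near or above its own. Queen 1 lay above its share and both queen-right lists below theirs. In all 8 choices the unused queen and queen-less worker had the regions more often than the unused queen-right worker. From the lists numbered 1, for example, 3908 regions were chosen, and queen 2 had 69.8%, queen-less worker 2 had 84.1% and queen-right worker 2 had 34.2% of them. The 8 choices reuse the same lists, so they are not independent of each other. Each of them also holds every active-ovary region, and by definition these regions have this direction in the unused lists. The values are thus a description and no independent support.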

How the data were processed

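For every ChIP sample the authors deposited a list of broad peaks, each peak with its scaffold, start, end and score. Per the list names, calling was broad at 0.1 with an extension setting of 147. The score was deposited as the peak caller of the authors gave it, without a named unit, and started at 10 in all 6 lists. The submitters' processing notes name Bowtie 1.0, SAMtools 1.5, MACS2 and bedtools. The genome build, the read filters and the use of the 3 input samples are not given in the sources used here, and the inputs were not analysed here. Queen lists carry other numbers than their labels, and samples were taken from the labels.

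Peaks were merged and counted with Python 3.11.15 and NumPy 2.4.6, intervals were computed with SciPy 1.17.1 (exact binomial) and figures drawn with matplotlib 3.10.9. The counting was tested on simulated data. A region took the score of its highest peak in a list. The span is the farthest peak end per scaffold. In each list neighbouring peaks lay at least 589 bases apart.

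Named regions were the 8 with the highest lowest percentile, the 5 widest, the 5 farthest from a queen-right peak on scaffolds with peaks of both queen-right lists, the longest run, and the scaffolds with the most regions and with the highest share. The regions and lists were chosen with earlier results of these data known, and the bases and windows were added after the data were seen. Alternatives were score minimums, list lengths, cover, overlap, joining, bins, distances, a replicate block and the omission of each sample in turn.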

Additional observations from a re-analysis of the deposited data

How the results depend on the processing

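Of 79 alternative values, 49 were read as unchanged and 30 as moved. Unchanged meant within 1 pooled SD of the replicates, the counting interval or 1.5 times the count. For a rank it meant the same rank. The count of 1384 active-ovary regions became 627 with a score of at least 20 in the active lists alone, 134 with equal covered bases, 878 with peaks closer than 1 kb joined and 3808 in bins of 1 kb, which split long regions. Leaving out 1 sample gave 1553 to 2856, the highest without queen-right worker 1, and 2519 without queen-right worker 2. Leaving out a list means that fewer lists must have or lack a region. The rank of 1 of 15 became 2 with a score of at least 20 in all lists, 4 with that score in the active lists alone and 9 with equal covered bases. Without 1 sample it was 1 to 2, among fewer choices. Rank 2 was reached without queen 1 (of 10 choices) and without queen-right worker 2 (of 5 choices). The replicate block, lists numbered 1 or 2 alone, gave 3908 and 4480 regions. The labels do not say that a number marks shared bees. The numbers served only to split the lists, here and for the windows chosen with lists of 1 number.

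The share of 23.4% within 1 kb of a queen-right peak became 21.1% with the score minimum in active lists, 41.0% with equal covered bases, 69.1% where peaks had to cover 50% of a region, 3.42% after joining, 1.08% at 500 bases, 79.3% at 5 kb and 18.4% to 27.5% without 1 sample. The share of bases, queens minus queen-less workers, was negative under each of its 12 alternatives, at -16.2 to -4.30 percentage points without 1 sample. The percentile difference of -0.90 was 6.40 with equal covered bases and -7.93 to 4.53 without 1 sample. The 64 windows became 40 with the score minimum in active lists, 41 with equal covered bases, 156 in windows of 50 kb, and 64 to 220 without 1 sample. The shares at 500 bases and at 5 kb are the same distances read at other limits. The cause of the other shifts was not tested. Depth is unknown, which limits every call of a weak peak as absent.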

Other observations

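Some values stand outside the comparisons. Of the scaffolds of 200 kb or more, 24 had a higher share of sequence under peaks in all 4 active lists than in both queen-right lists, 4 of them by at least 1.5 times, and 3 had a lower share in all 4. Besides NW_003378115.1 and NW_003377959.1, NW_003378143.1 had 14 active-ovary regions of 107, with 28.7%, 25.3%, 26.7% and 33.1% covered in the active lists and 16.1% and 16.8% in the queen-right lists. On NW_003378115.1, 4 of the 12 windows with most active-ovary regions lay next to each other, from 500001 to its last peak at 869440. In the third of these, from 700001 to 800000, peaks covered 29.0, 29.9, 32.0 and 25.3 kb in the active lists and 1.17 and 5.47 kb in the queen-right lists. No explanation of these values was tested.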
